A study of Ursus arctos with 12 samples.

Results

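The myosin light chains and the kinases that phosphorylate them were examined in skeletal muscle of free-ranging brown bears (Ursus arctos). The genes were named by symbol as MYL1, MYL2, MYL3, MYL4, MYL5, MYL6, MYL6B, MYLPF, MYLK2 and MYLK4. They were chosen from genes whose difference between winter and summer in these libraries was already known, so the seasonal values of the members are given as a description with no test. Of the 10 symbols, 9 matched a row of the count table of 30249 genes, which gave 7 light chains and 2 kinases, and all 9 passed the filter of 30 reads. MYL1 had no row under its symbol and was not analysed here.

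Biopsies of the vastus lateralis, a thigh muscle, came from 6 bears aged 2 to 3 years. Each bear gave 1 library in winter, when it was hibernating in February, and 1 in summer, when it was active in June, so 12 libraries were compared. The bears were wild animals captured under anesthesia in both seasons, with no other treatment and no genetic modification. Bears are named here by the numbers of the labels, 1305, 1316, 1317, 1509, 1511 and 1512.

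Myosin is the motor of the muscle filament, and each heavy chain carries an essential and a regulatory light chain on its lever arm. The light chains exist as several genes used in fast fibres, slow fibres, the heart, smooth muscle or developing muscle. In striated muscle, calcium and calmodulin activate a light chain kinase, and phosphate on the regulatory light chain raises the force produced at a given calcium level.

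The summer libraries held 20191068 to 27283155 reads and the winter libraries 16742406 to 32140160. Levels are given as CPM, the reads of a gene scaled to a common library size after TMM normalization, and as log2 CPM with SD. A difference is the winter value minus the summer value of the same bear on the log2 scale. A fold change is the edgeR estimate over all 12 libraries with a standard error (SE). This SE was worked back as the size of the log2 fold change over the square root of the F statistic of its test. Because transcript lengths were not used, CPM is compared between seasons for a gene and never between genes. The winter library of bear 1509 stood apart from the other 11 on the second principal component of all genes (98.6 against −29.4 to 8.16, 14.6% of the variance), so values that rest on it are also given without bear 1509.

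Markers of muscle fibres were abundant in both seasons. The summed level of 8 of them, including ACTA1, CKM, TTN and DES, was 112751.6 to 188325.9 CPM in summer and 121143.7 to 160118.9 CPM in winter. Of these 8, TTN and NEB were higher in winter (log2 fold changes of 0.65 ± 0.15 and 0.53 ± 0.14, SE), and MB and ACTA1 were lower (−1.01 ± 0.18 and −0.90 ± 0.28), the call of ACTA1 being lost without bear 1305, 1316 or 1509 (adjusted p up to 0.0834). Of the heart markers, NPPB and MYL7 had 0 reads in every library and NPPA 0 to 1, while MYH6, whose reads can be exchanged with those of the slow fibre gene MYH7, was at 136 to 402 CPM in summer and 64.7 to 281 CPM in winter. Markers of the smaller cell populations of a biopsy moved with season, where 19.6% of all genes were called higher and 19.9% lower. The summed level of 8 smooth muscle and pericyte markers was 543 to 658 CPM in summer and 254 to 354 CPM in winter, with 5 of 8 lower in winter. That of 5 endothelial markers was 577 to 916 CPM in summer and 381 to 449 CPM in winter, with 4 of 5 lower. That of 5 fibroblast markers was 3062.6 to 7897.4 CPM in summer and 228 to 1282.3 CPM in winter, with 3 of 5 lower. Most of this sum was collagen mRNA in summer, where COL3A1 and COL1A1 had medians of 3607.9 and 1263.9 CPM. Their winter medians were 56.2 and 24.9 CPM, and that of LUM went from 270 to 52.3 CPM. DCN and PDGFRA were not called (edgeR adjusted p of 0.0848 and 0.0772). Over the other settings tried, their adjusted p ran from 0.000187 to 0.231 and from 0.0336 to 0.242. Of 4 markers each, 1 was higher and 1 lower for adipocytes, 2 were lower for macrophages and 1 was lower for nerve. Within the smooth muscle and pericyte sum, RGS5 alone went from a median of 325 CPM in summer to 113 CPM in winter. The smooth muscle markers ACTA2, TAGLN and MYH11 were not called by edgeR over all bears (adjusted p of 0.0873, 0.0525 and 0.144). Over the other settings tried, their adjusted p ran from 0.0352 to 0.338, from 0.0253 to 0.191 and from 0.0432 to 0.483. Of the 8 smooth muscle and pericyte markers, 8 were called lower without bear 1305 and 4 without bear 1316. In a bulk biopsy, fewer cells of a type and less RNA per cell cannot be told apart.

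Across the 9 members, 2 were called higher in winter, MYL5 and MYL6B, and 3 were called lower, MYL6, MYLK2 and MYLK4. A call is an adjusted p below 0.05 in edgeR, and among all 17290 genes tested 19.6% were called higher and 19.9% lower, 39.5% in either direction. The members' counts come from the contrast by which they were known, and nothing is read from them. The 4 others, MYL2, MYL3, MYL4 and MYLPF, were not called. Under the stricter rule used in the study, an adjusted p below 0.01 with a fold change above 1.3 or below 0.77, 24.0% of genes changed in either direction, and the members again gave 2 higher and 3 lower. The winter libraries were all above the summer libraries for MYL6B, as for 9.12% of all genes, and all below them for MYL6, as for 8.21% of all genes. The median log2 fold change was 0.09 over the 9 members and −0.0021 over all genes.

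**Figure D1:**
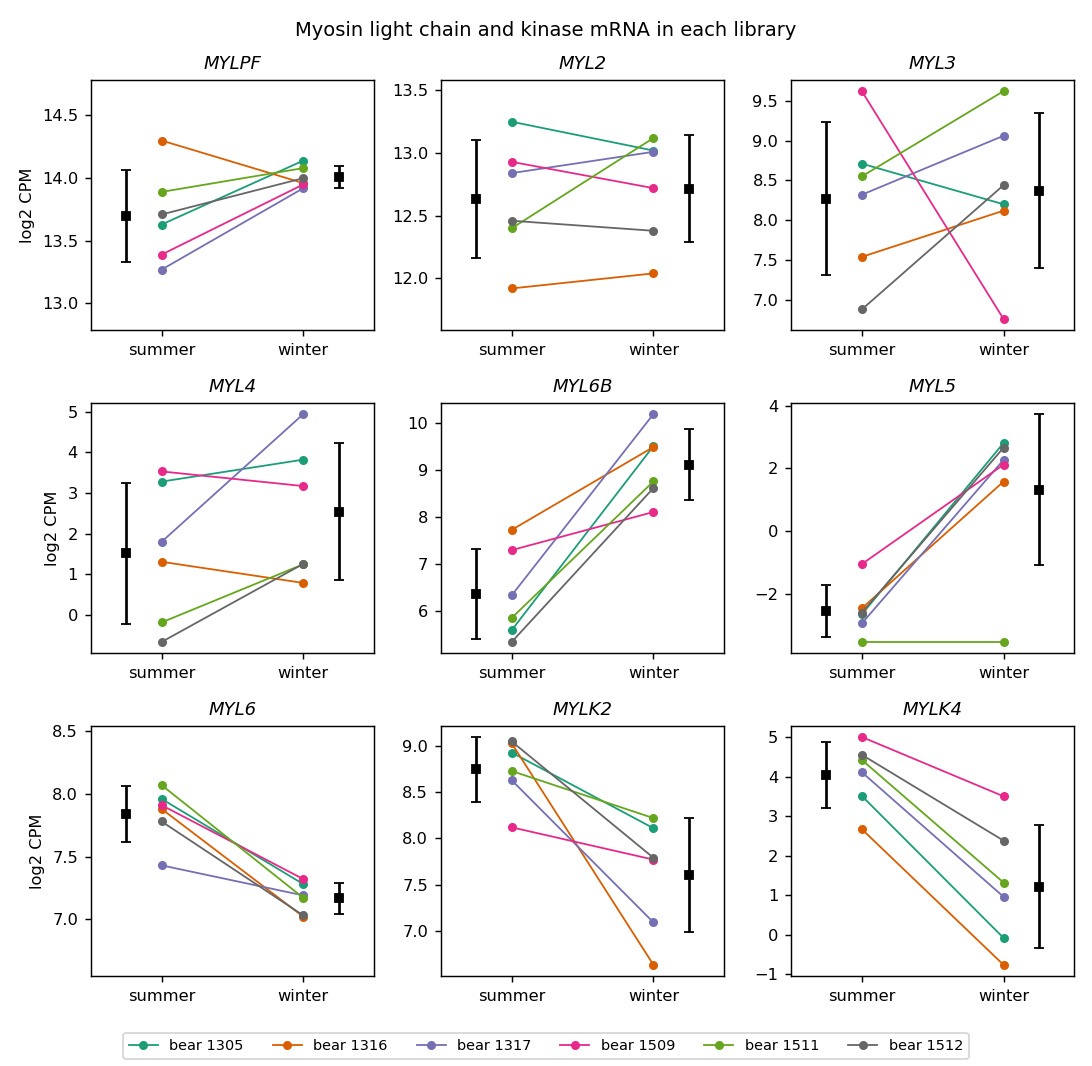
Level of each analysed member in each library, as log2 CPM on the vertical axis, with summer on the left and winter on the right of each panel. Each line joins the 2 libraries of a bear, squares with bars are the mean and SD of 6 bears, and vertical scales differ between panels. MYL6B rose and MYL6, MYLK2 and MYLK4 fell along every line, while the lines of MYL2 and MYL3 crossed.

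The first group is the light chains of adult fibres. MYLPF, the regulatory light chain of fast fibres, lay at 9844.3, 13050.3 and 20108.4 CPM (lowest, median and highest) in summer and at 15448.6, 16169.0 and 18012.9 CPM in winter. Its share of all reads was 1.12% to 1.87% in the summer libraries and 1.43% to 1.77% in the winter ones. The winter libraries lay inside the range of the summer libraries, with an SD of 0.085 on the log2 scale against 0.37. The fold change was 0.27 ± 0.17 (log2, SE), and the level was higher in 5 of 6 bears. Bear 1316, which had the highest summer level, was the exception with a difference of −0.34, and without it the fold change was 0.43 ± 0.16.

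MYL2, the regulatory light chain of slow fibres and of the heart ventricle, lay at 3864.1, 6480.1 and 9773.5 CPM in summer. In winter it lay at 4205.6, 7481.5 and 8920.1 CPM. The winter range lay inside the summer range, and the level was higher in 3 bears and lower in 3. The fold change was 0.07 ± 0.24 (log2, SE), and its sign turned when library totals replaced the TMM scaling (−0.02 ± 0.25) and when bear 1511 was left out (−0.07 ± 0.26). Bear 1316 had the lowest MYL2 level in both seasons.

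MYL3, the essential light chain of slow fibres and of the ventricle, was more variable. Summer libraries lay at 118, 348 and 788 CPM and winter libraries at 109, 321 and 789 CPM. Neither season was set apart, and the fold change was 0.09 ± 0.45 (log2, SE). Bear 1509 went from the highest summer level to the lowest winter level, a difference of −2.86. Among the other 5 bears, 4 were higher in winter, and without bear 1509 the fold change was 0.68 ± 0.36. It was negative with library totals (−0.03 ± 0.45), without bear 1317 (−0.05 ± 0.53) and without bear 1511 (−0.23 ± 0.48).

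The ratio of reads of MYL2 to those of MYLPF in a library gave the slow against the fast regulatory light chain. Library scaling cancels in this ratio. The log2 ratio was −2.38, −0.85 and −0.38 in summer (lowest, median, highest) and −1.92, −1.18 and −0.91 in winter. It changed by −0.23 ± 0.58 (SD, n = 6 bears), or by −0.12 without bear 1509, and was higher in winter in 2 of 6 bears. The change was smaller than the spread between bears. For MYL3 against MYLPF it was −0.21 ± 1.77, with 4 of 6 bears higher, and 0.43 without bear 1509. For MYL3 against MYL2 it was 0.02 ± 1.44, with 4 of 6 bears higher, and 0.55 without bear 1509.

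The next group is the light chains named from embryonic, atrial or rarely studied muscle. MYL4, the essential light chain of embryonic muscle and of the atrium, was at 0.548, 2.89 and 11.5 CPM in summer and at 1.64, 5.60 and 30.6 CPM in winter. The groups overlapped, and the level was higher in 4 of 6 bears. Its fold change was 1.07 ± 0.80 (log2, SE). Bear 1317 decided much of it, with 3.39 CPM in summer and 30.6 CPM in winter, and without this bear the fold change was 0.23 ± 0.83. MYL7, the atrial regulatory light chain, had 0 reads in every library, which allows up to 0.181 CPM at 3 reads, the highest limit among the libraries.

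MYL6B, an essential light chain known from slow and non-muscle myosin, was higher in winter in every bear. Its summer libraries lay at 40.7, 69.6 and 212 CPM, and its winter libraries at 277, 576 and 1166.3 CPM. The lowest winter library was above the highest summer library, and bear by bear 6 of 6 were higher. The mean log2 CPM was 6.36 ± 0.96 (SD, n = 6) in summer and 9.11 ± 0.75 in winter, and the fold change was 2.64 ± 0.45 (log2, SE), that is 6.22-fold. The difference ran from 0.82 in bear 1509 to 3.91, and without bear 1509 the fold change was 2.98 ± 0.47.

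MYL6, the essential light chain of smooth muscle and non-muscle myosin, went the other way. Summer libraries lay at 172, 238 and 268 CPM and winter libraries at 130, 145 and 159 CPM. The groups did not overlap, and the level was lower in 6 of 6 bears. The fold change was −0.68 ± 0.11 (log2, SE), a level 1.6-fold lower in winter, with differences of −0.90 to −0.24. The sums of the smooth muscle and endothelial markers given above were also lower in winter, though not every marker was called. The part of these cells in the lower MYL6 level was not tested.

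MYL6 and MYL6B are neighbours on the chromosome in the RefSeq annotation of the assembly UrsArc2.0, with spans that do not overlap. The log2 ratio of MYL6B reads to MYL6 reads was −2.43, −1.65 and −0.15 in summer and 0.80, 1.91 and 3.00 in winter. It changed by 3.42 ± 1.18 (SD, n = 6 bears), from 1.41 to 4.60 in single bears, and was higher in winter in 6 of 6. This pair of neighbours thus moved in opposite directions in the same libraries. The genes on their outer sides moved less. SMARCC2, a chromatin remodelling subunit, rose by 0.34 ± 0.09 (log2, SE, edgeR adjusted p = 0.00798), and ESYT1, a membrane tethering protein, fell by 0.30 on the log2 scale (SE 0.10, adjusted p = 0.0312). The call of SMARCC2 was lost with library totals (0.0628) and that of ESYT1 without bear 1316, 1317, 1509 or 1511 (up to 0.105).

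**Figure D2:**
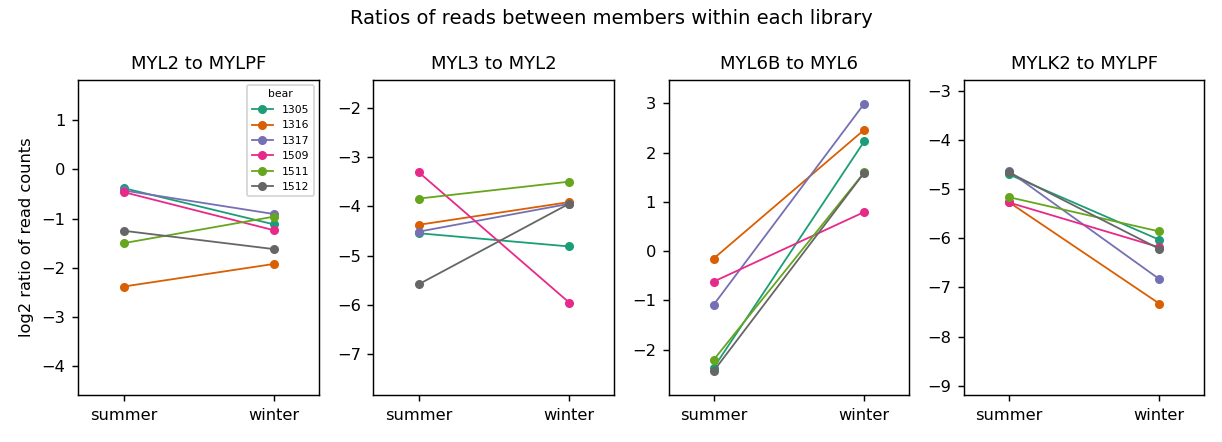
Ratios of reads of pairs of members within each library, on a log2 axis, in summer and in winter. Each line joins the 2 libraries of a bear. MYL6B to MYL6 was higher in winter in 6 of 6 bears and MYLK2 to MYLPF lower in 6 of 6, while MYL2 to MYLPF was higher in 2 of 6.

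MYL5, a regulatory light chain of which little is known in limb muscle, was close to absent in summer. The summer libraries of bears 1305, 1316, 1317, 1509, 1511 and 1512 held 2, 2, 1, 9, 0 and 2 reads. Their winter libraries held 170, 69, 84, 77, 0 and 191 reads. The winter level was 2.90 to 6.94 CPM in 5 bears, against at most 0.395 CPM in any summer library. The 6th bear, 1511, had 0 reads in both seasons, where the depth allows up to 0.12 CPM in summer and 0.181 CPM in winter, taking 3 reads as the limit of a count of 0.

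The fold change of MYL5 was 5.17 ± 0.86 (log2, SE), that is 35.9-fold. Over all libraries, 16 summer reads stood against 591 winter reads. With the reads of each season divided by its summed normalized library sizes, the ratio was 40.7. Its 95% exact interval of 24.8 to 71.6 covers counting error only. Without bear 1511 the fold change was 5.17 ± 0.48, and without bear 1509, which held 9 of the 16 summer reads, it was 6.07 ± 0.97. By limma voom, which gave 4.72 ± 1.92, MYL5 was not called.

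In the annotation of UrsArc2.0 the span of MYL5 overlaps those of its neighbours ATP5ME, a subunit of ATP synthase, and SLC49A3, a transporter. Counting was specific for strand, but reads in shared stretches on the same strand can be missed or assigned to either gene. Neither neighbour passed the test between seasons. ATP5ME had a fold change of −0.19 ± 0.19 (log2, SE, edgeR adjusted p = 0.446) and SLC49A3 one of −0.37 ± 0.29 (adjusted p = 0.328). The photoreceptor gene PDE6B, which lies near MYL5 in other mammals, held 0 to 1 reads per library. Of the photoreceptor markers, 2 were tested and 1, SAG, was higher in winter, a call lost without bear 1316, 1317, 1511 or 1512 (adjusted p 0.0501 to 0.0807).

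**Figure D3:**
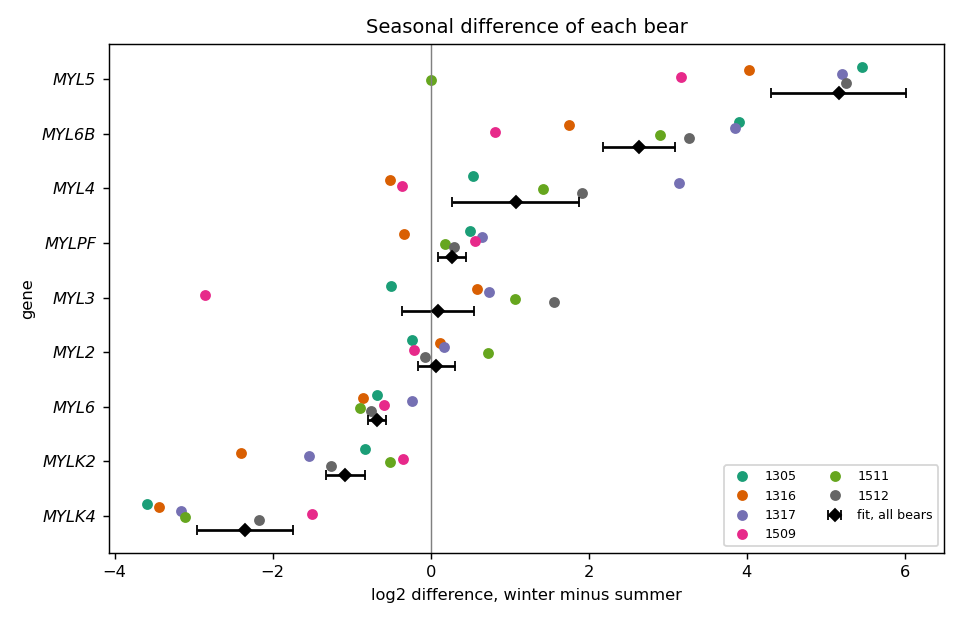
Winter minus summer difference of each analysed member in each of the 6 bears, as log2 CPM on the horizontal axis, with members in rows. Coloured points are bears, black diamonds with bars are the edgeR fold change over all bears with its SE, and the vertical line marks no difference. The points of MYL6B lie above 0 and those of MYL6, MYLK2 and MYLK4 below 0 in every bear, bear 1511 lies at 0 for MYL5, and bear 1509 is the lowest point of MYL3.

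Both kinases were lower in winter. MYLK2 encodes the light chain kinase of skeletal muscle, which phosphorylates MYLPF and MYL2. Its summer libraries lay at 277, 457 and 529 CPM and its winter libraries at 99.1, 220 and 298 CPM. The groups overlapped only through bear 1509, the lowest in summer, and bear 1511, the highest in winter. The level was lower in 6 of 6 bears, with differences from −2.40 in bear 1316 to −0.35 in bear 1509. The fold change was −1.08 ± 0.25 (log2, SE), a level 2.11-fold lower. It was −0.88 ± 0.22 without bear 1316 and −1.19 ± 0.26 without bear 1509.

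The ratio of MYLK2 reads to MYLPF reads, the kinase against its fast fibre substrate, changed by −1.46 ± 0.60 on the log2 scale (SD, n = 6 bears). It ran from −5.27 to −4.64 in summer and from −7.33 to −5.86 in winter and was lower in 6 of 6 bears, with changes of −2.19 to −0.70. The groups of this ratio did not overlap, although those of each gene did.

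MYLK4, a kinase of the same family that is found in striated muscle, was lower by a larger factor. It lay at 6.3, 19.3 and 32.0 CPM in summer and at 0.504, 2.13 and 11.2 CPM in winter. The groups overlapped because of bear 1509, at 11.2 CPM the highest in winter, and bear 1316, at 6.3 CPM the lowest in summer. The level was lower in 6 of 6 bears, with differences of −3.59 to −1.51. The fold change was −2.35 ± 0.61 (log2, SE), a level 5.1-fold lower, and −2.86 ± 0.54 without bear 1509. The bears stood in the same order in both seasons, from the lowest, 1316, over 1305, 1317, 1511 and 1512 to the highest, 1509.

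Whether members varied together between bears was asked within each season, which does not use the seasonal difference. Of 6 pairs in 2 seasons, no correlation passed the correction over 12 relations. The lowest adjusted p for Pearson's r was 0.298 (two-sided exact permutation test over 6 bears, where the smallest possible p is 0.00278). For MYL2 with MYL3, r was 0.609 in summer (exact permutation p = 0.199, rho 0.657, p = 0.175) and 0.389 in winter (p = 0.46, rho 0.6, p = 0.242), and without the 2 bears farthest from the median of MYL2 it was 0.637 and 0.947. MYL3 with TNNT1, the slow fibre troponin T, gave r = 0.706 in summer (exact permutation p = 0.118, rho 0.943, p = 0.0167, adjusted p = 0.2) and r = 0.737 in winter (p = 0.0819, rho 0.771, p = 0.103), and 0.73 and 0.524 without 2 bears. MYL2 with TNNT1 gave r = 0.755 in summer (exact permutation p = 0.0833, rho 0.714, p = 0.136) and 0.435 in winter (p = 0.375, rho 0.6, p = 0.242), and 0.491 and 0.859 without 2 bears.

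MYLPF with its kinase MYLK2 gave r = 0.622 in summer (exact permutation p = 0.197, rho 0.657, p = 0.175) and 0.749 in winter (p = 0.0958, rho 0.771, p = 0.103), and 0.678 and 0.471 without 2 bears. MYL4 with MYL5 gave 0.632 in summer (exact permutation p = 0.182, rho 0.371, p = 0.497) and 0.433 in winter (p = 0.428, rho 0.657, p = 0.175), and 0.701 and 0.258 without 2 bears. The summer libraries held only 0 to 9 MYL5 reads, and bear 1511 had 0 in both seasons. The r values of this pair thus rest in part on MYL5 levels at or near those that 0 reads give. The kinases MYLK2 and MYLK4 gave −0.652 in summer (exact permutation p = 0.158, rho −0.371, p = 0.497) and 0.426 in winter (p = 0.393, rho 0.314, p = 0.564). The winter value of the kinases turned to −0.791 without 2 bears.

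The genes most similar to a member were found from the deviations of log2 CPM from the season means over 12 libraries, among 10345 genes whose mean log2 CPM reached 1. For MYL2 they were ITGB3, an integrin subunit (r = 0.90), PLAT, a plasminogen activator (0.89), and VIT, a matrix protein (0.87). For MYL4 they were VMO1 (0.85), MYOZ2, a slow fibre protein of the Z disc (0.85), and TNNT2, the troponin T of heart and embryonic muscle (0.84). For MYL5 they were SEL1L, of protein quality control in the endoplasmic reticulum (0.92), DICER1, the nuclease of microRNA maturation (0.92), and TIPRL (0.87). These are the highest of many correlations over libraries that share bears, and no p is given. Without bear 1511, whose MYL5 reads were 0, the values of MYL5 fell to 0.48 for SEL1L, 0.30 for DICER1 and 0.22 for TIPRL, over 10 libraries. Those of MYL2 were then 0.86 to 0.91 and those of MYL4 0.82 to 0.86. Among members, MYL4 deviated with MYL2 (r = 0.63) and MYL3 with MYL2 (0.50), while MYLPF went against MYL2 (−0.51) and MYLK4 against MYL6B (−0.53).

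The other genes of light chain phosphorylation were taken as a list of 29, of which 27 had a row and 25 were tested. By edgeR, 2 rose and 5 fell in winter, and the median log2 fold change was −0.20. Among all genes tested, 19.6% were called higher and 19.9% lower. The smooth muscle counterparts were among the 5 that fell. MYL9, the regulatory light chain of smooth muscle, lay at 20.9, 30.7 and 36.8 CPM in summer and at 6.38, 10.3 and 14.0 CPM in winter, a fall by 1.55 on the log2 scale (SE 0.18, adjusted p = 4.05e-05). MYLK, the smooth muscle and non-muscle kinase, lay at 53.2, 57.0 and 79.5 CPM in summer and at 22.4, 30.2 and 40.5 CPM in winter, a fall by 1.07 (SE 0.15, adjusted p = 0.000127). Seasons did not overlap for either gene, as for the 8.21% of all genes whose winter libraries all lay below the summer ones. The sum of the smooth muscle and pericyte markers was lower in the same libraries, from 543 to 658 CPM to 254 to 354 CPM. Of the 8 markers, 5 were called lower by edgeR over all bears, while ACTA2, TAGLN and MYH11 were not called. With a bear left out, 4 to 8 of the 8 were called lower. The part of these cells in the falls of MYL9 and MYLK was not tested.

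Inhibitors of myosin phosphatase made up the rest of the falls. PPP1R14A, known from smooth muscle, fell by 1.43 (SE 0.53, adjusted p = 0.0436) at levels under 2 CPM, PPP1R14C by 0.40 (SE 0.13, adjusted p = 0.0212) and PPP1R14B by 0.39 (SE 0.14, adjusted p = 0.035). The call of PPP1R14A was lost without bear 1305, 1316, 1317 or 1509, with adjusted p up to 0.144, and under limma voom (0.0787). That of PPP1R14B was lost without bear 1305, 1316, 1509 or 1512 (up to 0.112), and that of PPP1R14C without bear 1316, 1511 or 1512 (up to 0.086). The kinases CAMK2D, activated by calmodulin, and PRKAA2, the catalytic subunit of AMP-activated kinase, rose by 0.59 ± 0.17 (log2, SE, adjusted p = 0.0122) and 0.46 ± 0.15 (adjusted p = 0.0229). Both calls were lost with library totals (0.0526 and 0.0722) and without bear 1316 (0.0529 and 0.0582), and that of PRKAA2 also without bear 1305 or 1509 (0.062 and 0.063). MYLK3, the kinase of heart muscle, had a fold change of −0.61 ± 0.43 (adjusted p = 0.281). Among the phosphatase genes, the targeting subunit PPP1R12B had a fold change of −0.01 ± 0.17 (adjusted p = 0.953) and the catalytic subunit PPP1CB one of −0.08 ± 0.12 (adjusted p = 0.641). MYL10 had 0 to 4 reads per library and, like MYL7, was not tested.

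**Figure D4:**
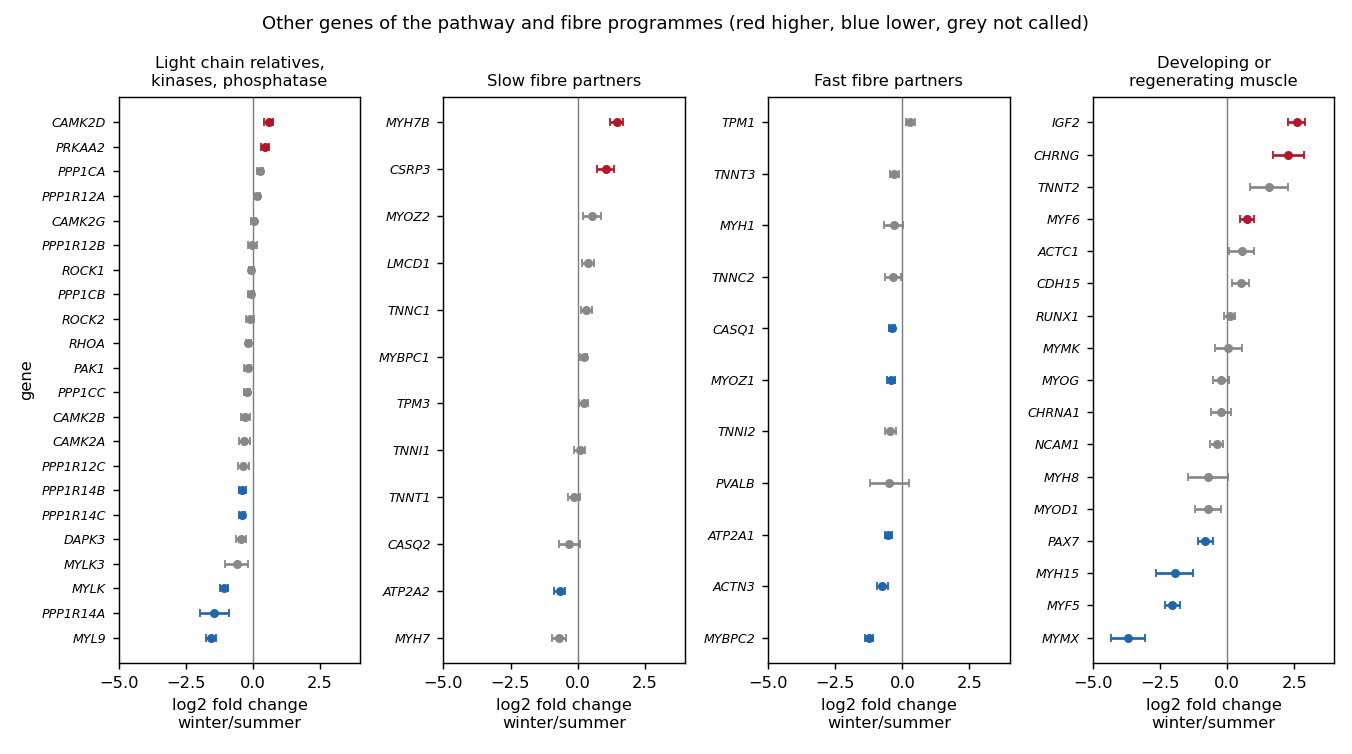
Winter minus summer log2 fold change with its SE of tested genes from the lists of light chain phosphorylation, slow fibres, fast fibres and developing muscle, on the horizontal axis, with genes in rows. Red genes were called higher and blue genes lower at an adjusted p below 0.05 in edgeR, and grey genes were not called. MYL9 and MYLK lie left of 0, and the fast fibre panel holds 5 blue genes and no red one. Over all genes, 19.9% were called lower and 19.6% higher.

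Of 12 partner genes of slow fibres tested, 2 were called higher and 1 lower. Among all genes, 19.6% were called higher and 19.9% lower, 39.5% in either direction. The median log2 fold change of the 12 was 0.22. MYH7B, a slow myosin heavy chain, lay at 57.0, 92.1 and 161 CPM in summer and at 198, 285 and 387 CPM in winter. This was a rise of 1.45 ± 0.24 (log2, SE, adjusted p = 0.000437) with no overlap, as for 9.12% of all genes. CSRP3, a Z disc protein, rose by 1.04 ± 0.33 (adjusted p = 0.0206), and ATP2A2, the slow fibre calcium pump, fell by 0.67 (SE 0.20, adjusted p = 0.0144). Both calls were lost without bear 1305 (0.0607 and 0.0575) and without bear 1317 (0.0957 and 0.0602).

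MYH7, the main slow heavy chain and the carrier of MYL2 and MYL3, lay at 2726.3, 4987.1 and 6589.5 CPM in summer and at 1930.6, 2985.7 and 4322.7 CPM in winter. It was lower in 6 of 6 bears, with a fold change of −0.68 ± 0.26 (log2, SE) and an adjusted p of 0.0511. With the bear as a block the adjusted p was 0.0284, and over all alternatives it ran from 0.00275 to 0.201, with 0.045 without bear 1316. Its row was identified by gene ID and shares sequence with MYH6, so reads of this pair can be exchanged. MYH6 had a fold change of −0.73 ± 0.32 (adjusted p = 0.0828). With the block the adjusted p was 0.0488 in edgeR and 0.0828 in DESeq2, and it ran from 0.0435 without bear 1511 to 0.258 without bear 1509, where the fold change was −0.42. The thin filament genes TNNT1 (−0.14 ± 0.22, adjusted p = 0.626), TNNI1 (0.08 ± 0.21, adjusted p = 0.793), TNNC1 (0.33 ± 0.19, adjusted p = 0.183) and TPM3 (0.22 ± 0.16, adjusted p = 0.304) did not pass the test.

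Of the fast fibre partner genes, 11 of 13 were tested, 5 fell and 0 rose by edgeR, against 19.9% and 19.6% of all genes, with a median of −0.44. In the same fit 0 were higher at an unadjusted p below 0.05, and 0 were called higher by DESeq2 or limma voom. At an unadjusted p below 0.05, 1 gene, TPM1, was higher in DESeq2 with the bear as a block and in edgeR without bear 1316. MYBPC2, the fast myosin binding protein C, lay at 2443.3, 2876.0 and 3257.8 CPM in summer and at 933, 1196.4 and 1661.4 CPM in winter. This was a fall by 1.24 (SE 0.16, adjusted p = 7.18e-05) with no overlap, as for 8.21% of all genes. ACTN3, the fast fibre actinin, fell by 0.75 (SE 0.20, adjusted p = 0.00909). ATP2A1, the fast calcium pump, fell by 0.53 (SE 0.13, adjusted p = 0.00474), MYOZ1 by 0.44 (SE 0.15, adjusted p = 0.03) and CASQ1 by 0.39 (SE 0.12, adjusted p = 0.0219). The call of MYOZ1 was lost with the bear as a block in edgeR (0.0594) but not in DESeq2 (0.0205). It was also lost without bear 1305, 1316 or 1512 (0.0718 to 0.125), and that of CASQ1 without bear 1316 (0.0829). MYH1, the heavy chain of a fast fibre type that lies in a cluster of near-identical genes, had a fold change of −0.32 ± 0.35 (adjusted p = 0.492). TNNT3 (−0.29 ± 0.16, adjusted p = 0.163), TNNC2 (−0.34 ± 0.29, adjusted p = 0.363), TNNI2 (−0.45 ± 0.20, adjusted p = 0.0835) and TPM1 (0.30 ± 0.17, adjusted p = 0.182) did not pass. TNNI2 passed with library totals (0.021), DESeq2 (0.0492), DESeq2 with the bear as a block (0.0363) and without bear 1317 (0.0214), but not in edgeR with the block (0.0941).

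Since MYL4 is known from developing muscle, genes of developing and regenerating fibres were set beside the members. Of 17 tested, 3 rose and 4 fell, against 19.6% and 19.9% of all genes, with a median of −0.22. IGF2, a growth factor of regeneration, lay at 4.52, 5.19 and 6.1 CPM in summer and at 11.6, 29.8 and 59.4 CPM in winter, a rise of 2.59 ± 0.32 (log2, SE, adjusted p = 5.32e-05). CHRNG, the embryonic subunit of the acetylcholine receptor, rose by 2.29 ± 0.58 (adjusted p = 0.00699) and by 1.6 ± 0.53 without bear 1317 (adjusted p = 0.0372), and the regulator MYF6 rose by 0.73 ± 0.26 (adjusted p = 0.0379). MYF5, a determination factor of myogenic cells, fell by 2.04 (SE 0.29, adjusted p = 0.000122), and MYMX, a protein of myoblast fusion with 0 to 15 reads per library, fell by 3.68 (SE 0.63, adjusted p = 0.000534). MYH15, with 3 to 30 reads per summer library and 0 to 5 per winter library, fell by 1.95 (SE 0.69, adjusted p = 0.0357). PAX7, the marker of satellite cells, fell by 0.81 (SE 0.27, adjusted p = 0.0298). The call of MYF6 was lost under limma voom (0.067) and without bear 1316, 1317 or 1512 (up to 0.158), that of MYH15 without 1305, 1317 or 1511 (up to 0.115) and that of PAX7 in DESeq2 with the bear as a block (0.0883) and without 1305, 1509, 1511 or 1512 (up to 0.0969). The neonatal heavy chain MYH8 had a fold change of −0.70 ± 0.74 (adjusted p = 0.478). TNNT2 had one of 1.56 ± 0.70 (adjusted p = 0.0891). With the bear as a block the adjusted p was 0.0494 in edgeR and 0.0656 in DESeq2, and it ran from 0.0457 without bear 1509 (fold change 2.03) to 0.32 without bear 1305 (0.92).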

How the data were processed

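The authors prepared stranded poly-A libraries, read 50 bases from single ends, aligned them to the brown bear assembly ASM358476v1 with TopHat2 2.1.1, dropped alignments with more than 3 mismatches and counted reads per gene by strand with featureCounts 1.6.2, per the paper and the submitters' processing notes. The deposited values are raw counts, not normalized or filtered. The labels give no sequencing lane for a library, and an effect of the lane was not tested.

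Genes with at least 30 reads over the 12 libraries were tested in R 4.3.3 with edgeR 4.0.16 (glmQLFit and glmQLFTest, TMM, season only), with Benjamini-Hochberg adjustment over 17290 genes. The study used DESeq2. Alternatives were RLE scaling, library totals, no filter beyond 1 read, the bear as a replicate block, DESeq2 1.42.0 with and without it, limma 3.58.1 voom, a stricter call rule and each bear left out. Log2 CPM used a prior count of 2. The methods state that the same bears were sampled in both seasons, so bear numbers pair the libraries. Log2 CPM minus the season mean had r values of 0.0903 to 0.344 for libraries from the same bear and up to 0.142 for different bears. The main fit did not use this pairing, so its p-values measure the spread between libraries within a season. The replicate block settings used the pairing. All libraries came from these 6 bears.

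The members and lists were chosen with earlier results of these data known. Named genes were the members, the MYH, TNN and TPM genes of each list and its 2 largest called rises and falls. Other list genes, the read ratios other than MYL2 to MYLPF and the similarity values without bear 1511 were chosen after their values were seen. MYH7, MYH6, MYH1, MYH8 and TPM3 were matched by gene ID to RefSeq names (UrsArc2.0). MYL12A, MYL12B, MYH2, MYH4 and MYH3 had no row that could be named and, like MYL1, were not analysed here. Some genes counted in the phosphorylation list are not reported here singly.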

Additional observations from a re-analysis of the deposited data

Results flagged for a closer look

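The MYL5 level of bear 1511 in winter was far below that of the other 5 winter libraries. It lay at −3.53 log2 CPM, the value that 0 reads give, against 1.58 to 2.81 in the others, and its gap to the nearest of them was 0.805 of the whole range, above the 95% critical value of Dixon's test. This was the only 1 of 28 groups of 6 values to pass, where chance alone passes about 1 in 20. The same bear also had 0 MYL5 reads in summer.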

How the results depend on the processing

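No called member changed direction under any setting tried. Over those settings MYL5 had log2 fold changes of 4.72 to 6.07, MYL6B over 2.30 to 2.98, MYL6 over −0.75 to −0.63, MYLK2 over −1.22 to −0.88 and MYLK4 over −2.92 to −2.22. Among members not called, MYL3 went from −0.23 to 0.68, MYL4 from 0.23 to 1.6, MYL2 from −0.07 to 0.15 and MYLPF from 0.21 to 0.43. With the bear as a replicate block, members called stayed at 2 higher and 3 lower, and 3392 genes of all were higher and 3663 lower. The members called higher were 1 with limma voom, which lost MYL5. Under the stricter rule 2077 genes were higher and 2077 lower. The phosphorylation list then had 0 higher and 2 lower, the slow list 1 and 0, the fast list 3 lower and the developing list 2 lower. With library totals, which moved the median log2 fold change of all genes to −0.0813, 2706 genes were higher and 3789 lower, and the phosphorylation list had 0 higher. The slow list had 2 lower with library totals, the replicate block, DESeq2, DESeq2 with the block and limma voom, through MYH7. With each bear left out, the phosphorylation list had 1 to 2 higher and 2 to 5 lower, the slow list 1 to 3 higher and 0 to 2 lower, the fast list 3 to 6 lower and the developing list 2 to 4 lower. The lowest of these came without bear 1316 for the phosphorylation and fast lists, without bear 1305 or 1317 for the slow list and without bear 1305 or 1511 for the developing list. Calls over all genes also fell with a bear left out, to 2541 to 3195 higher and 2715 to 3300 lower, against 3386 and 3445 with all bears. The winter correlation of MYLK2 with MYLK4 turned from 0.426 to −0.791 without 2 bears (exact permutation p = 0.25). The causes were not tested. The planned pairs and ratio with MYL1 were not run, as MYL1 had no row. Depth limits MYL5 in summer, where libraries held 0 to 9 reads.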
